A study of Mus musculus with 8 samples.

Results

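The 5 NF-κB subunit genes Rel, Rela, Nfkb1, Relb and Nfkb2 were examined in bulk RNA-seq of long-term hematopoietic stem cells (LT-HSCs). They were chosen by name, and each was found by its Ensembl identifier among the 55487 genes of the deposited count table. Each sample held 500 LT-HSCs, sorted as LSK CD48-CD150+ cells from fetal liver at E14.5, and the 8 samples were 3 IκBα WT, 3 HET and 2 KO. The KO embryos lacked both copies of Nfkbia, the gene of IκBα, through a targeted germline allele (Nfkbia tm1Bal), so that every cell of the embryo lacked it, and HET embryos carried 1 such copy. The parents were HET animals that could also carry the Gfi1:tomato reporter, and which embryos inherited the reporter was not given in the sources used here. By the methods, each genotype was planned with 3 mice and a further KO sample was discarded for its sequencing quality. WT1, WT2 and HET1 were male and labelled as total RNA, whereas WT3, HET2, HET3 and both KO samples were female and labelled as polyA RNA, so sex and this label cannot be told apart.

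NF-κB proteins are dimers built from 5 related subunits. In the canonical arm, IκBα keeps dimers of RelA or c-Rel with p50 (made from the Nfkb1 product) in the cytoplasm until the IKK complex has it degraded. In the non-canonical arm, NIK and IKKα have the p100 product of Nfkb2 processed to p52, which enters the nucleus with RelB. Genes of several subunits and inhibitors are themselves targets of NF-κB, and the pathway is known for its part in inflammation and in the emergence and upkeep of blood stem cells.

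On GRCm38 with the GENCODE M21 annotation, all 5 were protein-coding genes. Rel (ENSMUSG00000020275) spans chr11:23736847-23770970 on the minus strand. Rela (ENSMUSG00000024927) spans chr19:5637483-5648130 on the plus strand. Nfkb1 (ENSMUSG00000028163) spans chr3:135584655-135691547 on the minus strand. Relb (ENSMUSG00000002983) spans chr7:19606217-19629438 on the minus strand, and Nfkb2 (ENSMUSG00000025225) spans chr19:46304320-46312385 on the plus strand. Nfkb2 shares 531 exonic bases with the long non-coding gene AC114539.1 and 299 with Psd, both on the opposite strand, and the counting is not stated to use strand, so some of its reads may belong to them.

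Promoters are shown because several subunit genes are themselves NF-κB targets. RefSeq promoter sequences (GRCm38.p6, 250 bases before to 50 after the start site) matched 3 of the 5 genes, Rel, Rela and Nfkb2. Capitals mark matches to the κB decamer consensus, searched on both strands with overlapping matches kept.
Rel, chr11:23770920-23771219, minus strand: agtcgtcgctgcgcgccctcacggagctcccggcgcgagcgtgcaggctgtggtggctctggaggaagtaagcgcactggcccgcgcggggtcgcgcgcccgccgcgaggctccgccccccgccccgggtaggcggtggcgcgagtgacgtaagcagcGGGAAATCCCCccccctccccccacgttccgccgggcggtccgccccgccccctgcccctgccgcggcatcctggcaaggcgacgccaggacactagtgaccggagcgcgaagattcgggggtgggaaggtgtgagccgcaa
Rela, chr19:5637291-5637590, plus strand: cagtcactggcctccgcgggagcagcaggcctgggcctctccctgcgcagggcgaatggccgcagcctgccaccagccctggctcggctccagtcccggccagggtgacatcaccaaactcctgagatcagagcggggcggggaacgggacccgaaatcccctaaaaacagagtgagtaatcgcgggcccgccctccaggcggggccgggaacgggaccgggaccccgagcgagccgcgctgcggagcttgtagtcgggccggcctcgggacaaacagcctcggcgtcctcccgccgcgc
Nfkb2, chr19:46304487-46304786, plus strand: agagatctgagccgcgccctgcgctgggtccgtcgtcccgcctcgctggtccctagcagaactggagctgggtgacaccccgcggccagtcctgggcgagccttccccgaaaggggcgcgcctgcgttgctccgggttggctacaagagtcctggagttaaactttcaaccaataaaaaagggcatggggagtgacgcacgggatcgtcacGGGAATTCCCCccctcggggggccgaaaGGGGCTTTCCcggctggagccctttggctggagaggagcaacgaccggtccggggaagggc
Nfkb2, chr19:46305445-46305744, plus strand: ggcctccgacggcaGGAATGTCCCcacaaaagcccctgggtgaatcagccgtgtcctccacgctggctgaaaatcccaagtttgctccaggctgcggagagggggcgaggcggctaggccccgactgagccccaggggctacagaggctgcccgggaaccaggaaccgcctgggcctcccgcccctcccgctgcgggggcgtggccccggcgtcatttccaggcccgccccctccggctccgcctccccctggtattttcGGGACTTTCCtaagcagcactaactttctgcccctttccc

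The Rel window held 1 matching stretch, from 92 to 82 bases before the start site. The upstream Nfkb2 window held 2, from 39 to 29 and from 11 to 2 bases before the start site. The downstream window of that gene held 2 more. They lie 236 to 227 bases before its start site and, past it, at bases 11 to 20. In this window alone, the bases after the start site were not found unbroken in a GENCODE transcript of the gene. The remaining Nfkb2 window, chr19:46305680-46305979, is not printed because it shares 65 bases with the downstream one. Its only match is the second of those 2 stretches, at chr19:46305705-46305714. No match was present in the Rela window. Of 32851 promoter windows of this length, 8.46% held at least 1 match. A match describes the letters of the sequence and does not show that a subunit is bound there.

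The deleted gene was checked before the subunits. Nfkbia was at 45.3, 67.7 and 23.4 CPM (counts scaled to the TMM-normalized library size) in WT and at 23.3, 29.0 and 14.4 CPM in HET, against 1 read in KO1 and 0 reads in KO2, where 3 reads would be 0.147 to 0.148 CPM. Both KO samples were below all others, as their labels state. The libraries held 17895973 to 21720972 counted reads. WT3 and HET3 stood apart in cell type markers. They also had the fewest genes with at least 10 reads, 13392 and 12308 against 13720 to 15125 in the others. Their TMM factors, 0.884 and 0.855, were the lowest. The summed level of 8 HSC markers (Procr, Slamf1, Kit, Ly6a, Mecom, Hlf, Fgd5 and Ctnnal1) was 1209, 1239 and 234 CPM in WT, 432, 409 and 207 CPM in HET, and 1059 and 757 CPM in KO. The summed level of 8 hepatocyte markers was 1483 CPM in WT3 and 753 CPM in HET3, against 49.8 to 299 CPM in the other 6 samples. All 8 HSC markers had an unadjusted p under 0.05 in edgeR's quasi-likelihood test for KO against WT/HET, each higher in KO, as were 15.7% of all genes, with a median log2 fold change of 2.61. None was called after adjustment, while DESeq2 with apeglm called 3, as 6.5% of all genes higher. With sex in the model, these fits set the female KO samples against the female WT3, HET2 and HET3. If WT3 and HET3 are left out, that contrast rests on HET2 alone. Without WT3 and HET3, 1 of the 8 (Fgd5) was higher at that p, as were 4.18% of all genes, and the median was 1.52. Across the 8 samples the summed levels were 661 to 14411 CPM for erythroid, 34.2 to 1295 for megakaryocyte, 119 to 914 for neutrophil and 5.10 to 223 for endothelial markers. They were 24.0 to 212 CPM for macrophage, 56.1 to 171 for progenitor, 2.19 to 99.3 for B cell, 12.5 to 24.5 for dendritic, and 0.885 to 10.2 for T and NK cell markers. Like the HSC sum, the progenitor, megakaryocyte, endothelial, B cell, and T and NK cell sums were each lowest in WT3 and HET3. No marker list was at 0 throughout, and of its single markers only Ms4a1, Cd3e and Ncr1 had no read in any sample. Bulk counts cannot tell fewer cells of a type from less RNA per cell.

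The subunits were first compared with each other by level, in TPM, which scales reads by exon union length and by library, since reads of different genes compare only per length. Rela, which encodes the main transactivating canonical subunit, was the highest of the 5 in 8 of 8 samples, at 91.4 to 136 TPM. Nfkb1, the gene of p105 and p50, came next in 8 of 8 samples at 18.9 to 42.4 TPM, and Rel, the gene of c-Rel, was lowest in 8 of 8 at 0.174 to 5.60 TPM. Relb ranged from 0.965 to 15.5 TPM and Nfkb2 from 1.76 to 13.2 TPM. Relb was above Nfkb2 in WT1, WT2, KO1 and KO2 and below it in WT3 and the 3 HET samples, so these neighbours had no fixed order. Rela lay at the 89.7th to 92.1st percentile of tested genes by TPM in every sample, and Nfkb1 at the 73.6th to 79.6th. Rel moved from the 23.5th percentile in WT3 to the 51.4th in KO1. The distance between Rela and Nfkb1 depended on the length used. Rela was 2.93 to 5.18 times Nfkb1 with the exon union (12061 bases for Nfkb1), but 1.13 to 2.00 times with the longest protein-coding transcript (4117 bases), an alternative chosen after seeing the data. With that length, Relb was above Nfkb2 in 5 of 8 samples, HET1 included.

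**Figure D1:**
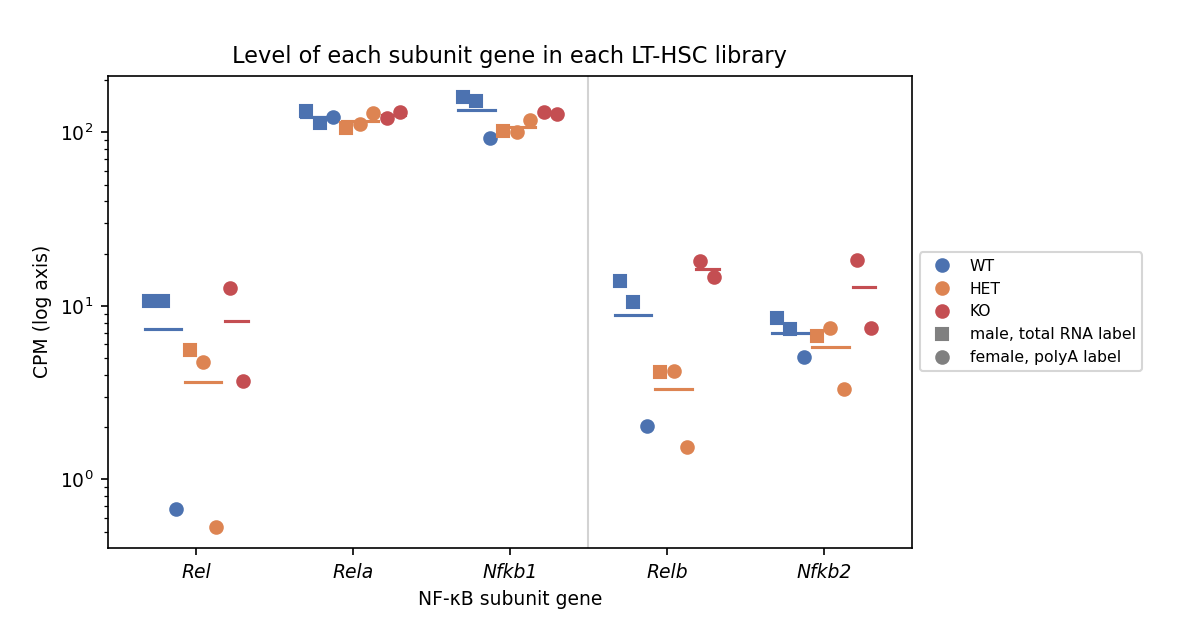
CPM of each subunit gene (log axis) in the 8 libraries, coloured by genotype, with squares for male and circles for female samples and a line at each group mean; the vertical line parts canonical (left) from non-canonical genes. Rela stays between 106 and 132 CPM, Rel and Relb are lowest in WT3 and HET3, and Relb in both KO samples lies above all 6 others.

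The canonical genes Rela and Nfkb1 had the smallest spread of the 5 over the 8 samples. Rela was at 132, 113 and 122 CPM in WT, at 106, 112 and 129 CPM in HET, and at 121 and 131 CPM in KO. The 3 genotypes overlapped, and the coefficient of variation over all 8 samples was 8.03%. Its log2 fold change in KO against WT/HET, with sex in the model, was 0.06 ± 0.15 (SE, adjusted p = 0.829, edgeR), and it was -0.04 with upper quartile normalization. Nfkb1 was at 160, 152 and 92.6 CPM in WT, 102, 100 and 118 CPM in HET, and 131 and 128 CPM in KO. The coefficient of variation was 19.8% over all 8 samples and 27.2% within WT, where WT3 was lowest. The KO values lay inside the WT range and above the HET range. The log2 fold change of Nfkb1 was 0.32 ± 0.21 (adjusted p = 0.363), and an exact two-sided permutation test of log2 CPM gave p = 0.571 for 2 KO against 6 WT and HET samples, where the smallest possible p is 0.0714. The fitted value was 0.10 without sex in the model and -0.12 ± 0.28 with the summed HSC markers as a further covariate. With library size only it was 0.60, where the median of all genes was 0.41. In both genes the difference was within the spread between samples.

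Rel, also canonical, had a far wider spread than Rela, with a coefficient of variation of 75.96% over the 8 samples. Rel was at 10.7, 10.7 and 0.677 CPM in WT, 5.58, 4.74 and 0.534 CPM in HET, and 12.6 and 3.69 CPM in KO. WT3 and HET3 rested on 13 and 9 reads, and the KO samples lay on either side of WT1 and WT2. The fitted log2 fold change in KO was 2.03 ± 0.94 (edgeR, adjusted p = 0.214). It was 0.89 without KO1, 0.57 without sex in the model and 0.75 ± 0.83 without WT3 and HET3. With the summed HSC markers as a further covariate it was -0.080 ± 1.01. Rel was called only without HET2, at 3.74 (adjusted p = 0.0434), where 3.43% of all genes were called higher. The permutation test on the same 8 samples, which is exact and leaves out sex, gave p = 0.714.

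Relb, the gene of the non-canonical transactivating subunit, had the largest fitted difference of the 5 in KO against WT/HET. Rel exceeded it with WT alone as reference (3.58 against 3.01) and without HET2 (3.74 against 3.20). Relb was at 13.9, 10.5 and 2.03 CPM in WT, 4.15, 4.24 and 1.54 CPM in HET, and 18.2 and 14.7 CPM in KO, from 26 to 371 reads. Both KO samples were above all 6 others, though KO2 exceeded WT1 only narrowly and the HET samples and WT3 were far lower. Relb was the only member whose KO samples lay above all 6, as did 3.05% of the 20610 genes tested. The log2 fold change was 2.65 ± 0.59 (edgeR, unadjusted p = 0.00172, adjusted p = 0.148), and the exact permutation p was 0.0714, the smallest that 2 against 6 samples can give. Both KO samples are female, so with sex in the model the fitted value sets them against WT3, HET2 and HET3. With female samples only it was 2.60. A smaller edgeR p was seen in 0.907% of genes. DESeq2 with the same model called Relb (2.62 ± 0.61, adjusted p = 0.00217, and 2.33 ± 0.64 after apeglm shrinkage), as it did 7.1% of genes after shrinkage, 6.5% in the higher direction. In edgeR it was called without HET2 (adjusted p = 0.0431), with WT alone as reference (0.0363) and with no filter on low counts (0.0174), where 3.43%, 3.6% and 3.14% of all genes were called higher. The log2 fold change was 1.43 without sex in the model. It was 1.92 ± 0.77 without WT3 and HET3, where HET2 was the only female reference. It was 0.86 ± 0.47 with the summed HSC markers as a further covariate (adjusted p = 1). The last 2 alternatives were chosen after seeing the data. Beyond these fits, the part of the HSC marker levels in the Relb difference was not tested.

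Nfkb2, the gene of p100 and p52, was at 8.47, 7.35 and 5.10 CPM in WT, 6.70, 7.42 and 3.32 CPM in HET, and 18.3 and 7.47 CPM in KO. KO1 was the highest of the 8 samples by far, whereas KO2 lay among the WT and HET values and below WT1. The log2 fold change was 1.29 ± 0.47 (edgeR, unadjusted p = 0.0255, adjusted p = 0.162), the exact permutation p was 0.143, and the log2 fold change was 0.50 without KO1, 0.77 without WT3 and HET3 and 0.44 with the summed HSC markers as covariate. DESeq2 did not call it.

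Read as a set, 0 of the 5 genes were called in KO against WT/HET by edgeR (adjusted p under 0.05 and a log2 fold change beyond 1 in either direction), as were 0% of all genes tested. At an unadjusted p under 0.05, Relb and Nfkb2 were higher and none was lower, against 15.7% of all genes higher and 9.48% lower. DESeq2 called Relb alone of the 5. The median log2 fold change was 1.97 over the 2 non-canonical genes, 0.32 over the 3 canonical genes, and 0.13 over all genes tested. Without WT3 and HET3, which had the lowest HSC markers, these were 1.34, 0.34 and 0.14, with HET2 as the only female reference. With the HSC marker covariate they were 0.65, -0.08 and 0.05. The median of all genes itself moved with scaling, to 0.10 with RLE, 0.03 with upper quartile and 0.41 with library size only. In the 3 female WT and HET samples alone as reference, Nfkb1, Relb and Nfkb2 were higher in both KO samples, as were 27.2% of genes. On the authors' log2 values corrected for sex, the KO mean exceeded the WT/HET mean by 1.10 for Relb, 0.71 for Rel, 0.55 for Nfkb2, 0.23 for Nfkb1 and 0.00 for Rela. Both KO samples were above all 6 for Relb only, as for 19.3% of genes on that scale.

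**Figure D2:**
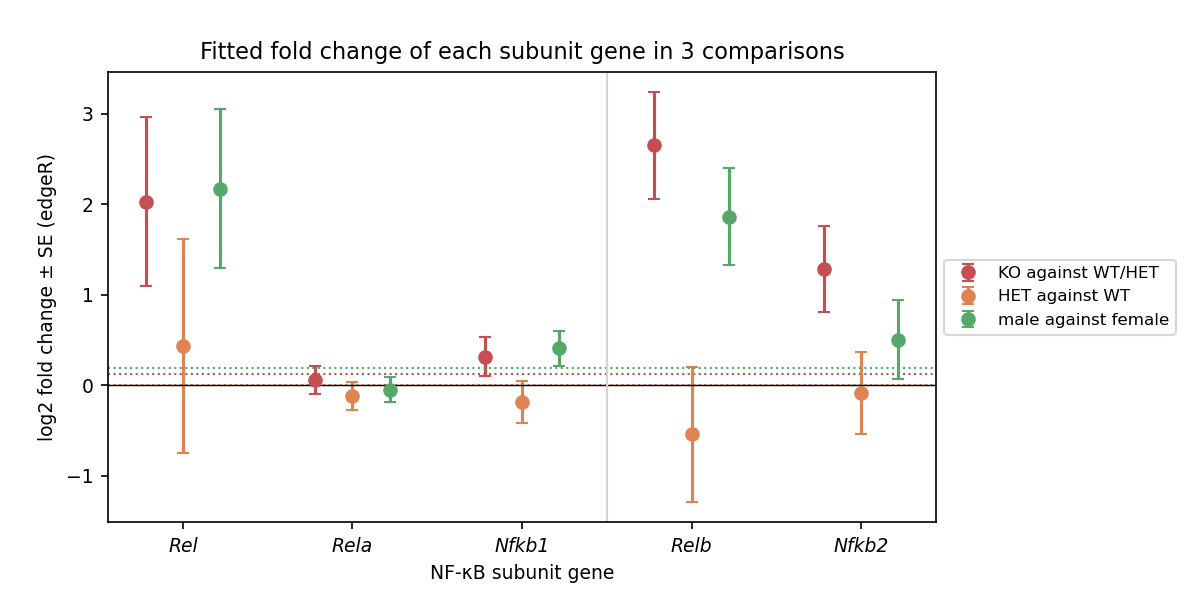
Fitted log2 fold change (edgeR, points) with its SE (bars) of each subunit gene in 3 comparisons; dotted lines mark the median of all genes tested in the comparison of that colour. In KO against WT/HET, Relb is at 2.65 and Rela at 0.06, and for Rel, Nfkb1, Relb and Nfkb2 the male against female values lie above 0 like the KO values.

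The balance between the arms was then compared within each sample as the log2 ratio of summed TPM, Relb and Nfkb2 over Rel, Rela and Nfkb1. It was -3.41, -3.56 and -4.86 in WT, -4.11, -4.07 and -5.53 in HET, and -2.58 and -3.32 in KO. Both KO values were above all 6 others, KO2 by little over WT1, and the lowest values were again WT3 and HET3. The KO mean was -2.95 and the WT/HET mean -4.26 ± 0.80 (SD, n = 6), a difference of 1.31. Against the 3 female WT and HET samples it was 1.87, and without WT3 and HET3 it was 0.84. Relb and Nfkb2 together made up 14.3% and 9.12% of the summed TPM of the 5 genes in KO, 8.60%, 7.79% and 3.33% in WT, and 5.47%, 5.63% and 2.12% in HET. Between the matched partners of each arm, the log2 ratio of Relb to Rela differed by 1.78 between KO and WT/HET without overlap. That of Nfkb2 to Nfkb1 differed by 0.80, and that of Rel to Rela, within the canonical arm, by 1.001, both with overlap. Both of these differences rested largely on KO1. Nfkb2 to Nfkb1 was at -1.44 in KO1 and -2.70 in KO2, against a WT/HET mean of -2.88. Rel to Rela was at -4.54 in KO1 and -6.44 in KO2. Its WT/HET mean was -6.49, with WT3 at -8.78 and HET3 at -9.19. No p is given for these ratios, which are scores over chosen genes.

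**Figure D3:**
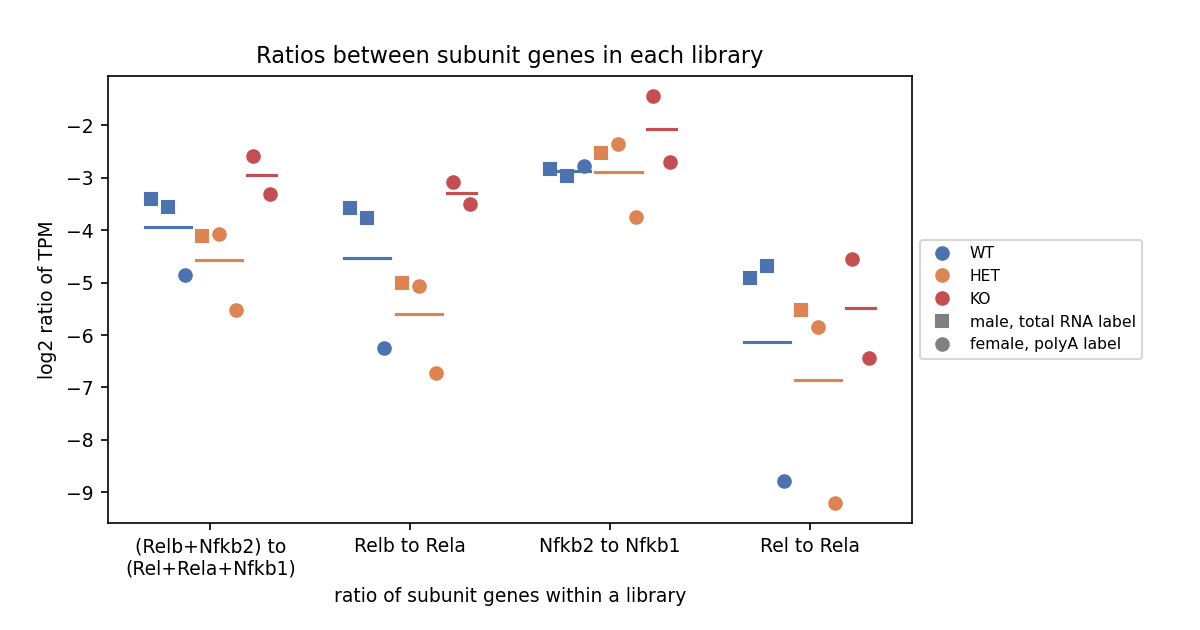
Log2 ratio of TPM between subunit genes in each library, by genotype (colour) and sex (symbol), with a line at each group mean. The ratio of the non-canonical to the canonical genes is -2.58 and -3.32 in KO and at most -3.41 in the others, and the ratio of Rel to Rela falls to -8.78 in WT3 and -9.19 in HET3.

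Relb also moved with the HSC markers from sample to sample. Among the 6 WT and HET samples, Relb was at 11.5, 8.47 and 8.67 CPM per 1000 CPM of summed HSC markers in WT and at 9.60, 10.4 and 7.45 in HET, a mean of 9.34 ± 1.45 (SD, n = 6). In KO1 and KO2 it was at 17.1 and 19.4. The 9.01-fold spread of Relb among WT and HET samples narrowed to a range of 7.45 to 11.5 on this scale. Both KO samples were above it, and their mean was 1.95 times that of the 6. Both KO samples exceeded all 6 on this scale for 1.1% of genes. Rel, with 2.58 to 12.9 in WT and HET and 11.9 and 4.87 in KO, overlapped, as did Nfkb2, Rela and Nfkb1. The 1.25-fold spread of Rela among WT and HET samples widened on this scale to a range of 91.5 to 622. The KO mean was 0.46 times that of the 6 for Rela and 0.51 times for Nfkb1. This scale was chosen after the values were seen, and no test was made on it. The edgeR fit with the same markers as covariate, given above, did not call Relb (0.86 ± 0.47, adjusted p = 1).

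**Figure D4:**
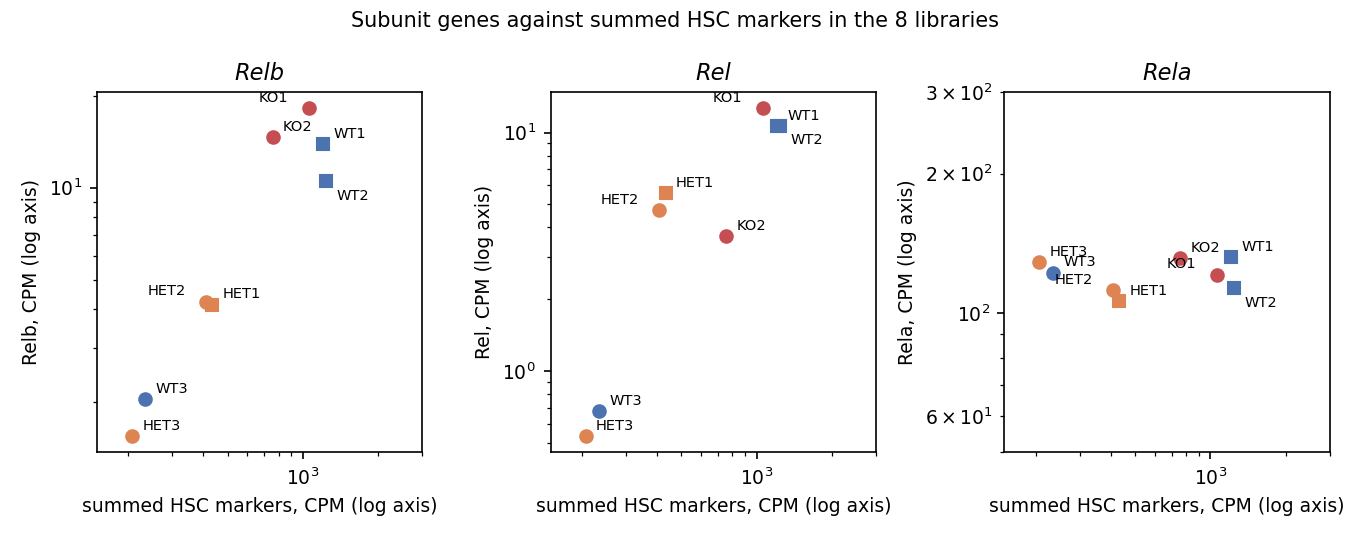
CPM of Relb, Rel and Rela (log axes) against the summed CPM of 8 HSC markers in each of the 8 libraries, by genotype (colour) and sex (symbol). Relb falls with the HSC markers to 1.54 CPM in HET3 and both KO samples lie above the other samples, whereas Rela stays at 106 to 132 CPM at every marker level.

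Loss of 1 Nfkbia copy was compared over the 6 WT and HET samples. For all 5 genes the HET range overlapped the WT range, whereas 4.85% of genes were lower and 4.2% higher in HET without overlap. None of the 5 was called by edgeR or DESeq2, or had an unadjusted p under 0.05. In edgeR 0% of genes were called, and 1.8% were higher and 1.83% lower at that p. Of the 8 erythroid markers, 7 were higher in HET at that p and none lower, with a median log2 fold change of 1.86. Their summed level was 3374 to 14411 CPM in HET, highest in HET1, against 1167 to 3021 CPM in WT. Their part in the member values was not tested. The log2 fold changes were 0.44 ± 1.18 for Rel, -0.12 ± 0.16 for Rela, -0.19 ± 0.23 for Nfkb1, -0.54 ± 0.74 for Relb and -0.08 ± 0.46 for Nfkb2. The exact permutation p of each lay between 0.3 and 0.6, where 3 against 3 samples allow no less than 0.1. The mean CPM of Relb in HET was 0.376 times that in WT, and that of Nfkbia 0.489 times, yet WT3 was below 2 HET samples for Relb. Within the same-numbered pairs, HET was lower than WT in 3 of 3 pairs for Relb, at 0.298, 0.404 and 0.759 times the WT value, and for Rel, at 0.523, 0.443 and 0.789 times, as for 21.4% of genes. Neither these ratios nor those of the means are corrected for sex and RNA label, which differ between WT2 (male) and HET2 (female). HET was lower in 2 of 3 pairs for Rela, Nfkb1 and Nfkb2. With the replicate number as a block in the edgeR fit, the log2 fold change was -1.10 ± 0.61 for Relb (adjusted p = 0.876), -0.68 ± 0.58 for Rel (adjusted p = 0.893) and -0.48 ± 0.50 for Nfkb2 (adjusted p = 0.912), so that Rel turned from above to below 0, and no member was called. None had an unadjusted p under 0.05 in this fit, against 4.39% of genes lower and 0.821% higher. The sign of the fitted value turned without HET1 for Nfkb1, Relb and Nfkb2, without HET3 for Nfkb2, and without WT3 or HET2 for Rel.

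The male, total RNA-labelled samples were also compared with the female, polyA-labelled ones. With genotype in the model, the log2 fold change, male over female, was 2.17 ± 0.88 for Rel (unadjusted p = 0.0372, adjusted p = 0.132, edgeR) and 1.86 ± 0.54 for Relb (unadjusted p = 0.00803, adjusted p = 0.0901). The values were 0.51 ± 0.43 for Nfkb2, 0.41 ± 0.19 for Nfkb1 and -0.05 ± 0.14 for Rela. None of the 5 was called in edgeR, as 0.0194% of genes were, and DESeq2 called Rel and Relb, both higher in male samples, as it did 11.5% of genes in that direction. Both values moved with single libraries. Without WT3 and HET3, where HET2 was the only female WT or HET sample, they were 0.89 ± 0.80 for Rel and 1.13 ± 0.71 for Relb. Without HET2 both were called in edgeR, Rel at 3.88 (adjusted p = 0.0326) and Relb at 2.41 (adjusted p = 0.047), and 6.28% of all genes were called higher. Without HET1 Relb was called at 2.20 (adjusted p = 0.019), as 9.02% of all genes were called higher. At an unadjusted p under 0.05, 2 of the 5 were higher, against 18.9% of all genes. Of the 8 HSC markers 7 were higher in male samples at that p, with a median of 2.81, and 7 of 8 hepatocyte markers were lower, with a median of -4.28. Their part in the Rel and Relb values was not tested.

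Members were also correlated with each other across the 8 samples. Of the 10 pairs of members, Relb and Nfkb2 had Pearson's r = 0.83 (exact permutation p = 0.00057, 0.0057 after Benjamini-Hochberg adjustment over the 10 pairs) and Spearman's rho = 0.95 (exact p = 0.00114, adjusted 0.0114). Rel and Relb had r = 0.86 (exact p = 0.00565, adjusted 0.0188) and rho = 0.71 (exact p = 0.0576, adjusted 0.192). Rel and Nfkb2 had r = 0.82 (exact p = 0.00124, adjusted 0.0062) with the same rho and p. Without WT3 and HET3, the samples farthest from the median, these r fell to 0.61, 0.49 and 0.60, so the relations rest in part on those samples. Nfkb1 had r = 0.72 with Relb (exact p = 0.0534, adjusted 0.133), 0.60 with Rel (exact p = 0.123, adjusted 0.246) and 0.36 with Nfkb2 (exact p = 0.401, adjusted 0.572). Without the 2 samples farthest from the median in each, these were 0.57, 0.66 and 0.24. Spearman's rho of Nfkb1 was 0.64 with Relb and with Rel (exact p = 0.0962, adjusted 0.192, in both) and 0.60 with Nfkb2 (exact p = 0.132, adjusted 0.22). Sex and the RNA label divide the samples into 3 and 5. With the mean of each of these removed, chosen after seeing the data, r was 0.84 for Relb and Nfkb2 (exact permutation within sex, p = 0.00694, adjusted 0.0347), 0.93 for Rel and Nfkb2 (exact p = 0.00556, adjusted 0.0347), and 0.88 for Rel and Relb (exact p = 0.0389, adjusted 0.13). Before this removal, the r of Rela with the others lay between -0.26 and 0.42. With the means removed it lay between -0.10 and 0.69, highest with Nfkb1 (exact p = 0.15, adjusted 0.3). That of Nfkb1 was then 0.70 with Relb (exact p = 0.0722, adjusted 0.181), 0.47 with Rel (adjusted 0.343) and 0.38 with Nfkb2 (adjusted 0.478). Genotype was not removed from any of these correlations, and KO1 was the highest of the 8 samples for Rel, Relb and Nfkb2. They therefore include the difference between KO1 and the other samples.

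Among 9764 other protein-coding genes with a mean of at least 5 CPM, those with the most similar pattern over the 8 samples were named for each member. For Relb they were Rras (r = 0.995), Ip6k1 (0.990) and Il4 (0.990). Rras, a small GTPase gene, was at 48.0, 38.4 and 6.72 CPM in WT, 13.3, 14.6 and 5.63 CPM in HET, and 68.7 and 41.4 CPM in KO. For Rel they were Slc36a4 (0.99), Gucy1b1 (0.99) and Myo5a (0.99), and for Nfkb2 they were Ubn1 (0.95), Foxn3 (0.94) and Bcl2l1 (0.93), the last an anti-apoptotic gene. Sqstm1 (0.99), Fuca1 (0.98) and Kdm4c (0.98) were nearest to Nfkb1, and Acads (0.95), Igsf8 (0.95) and Sel1l (0.93) to Rela. As many as 1201 genes had r over 0.9 with Rel and 1111 with Relb, against 129 with Nfkb1, 18 with Nfkb2 and 7 with Rela, so the Rel and Relb patterns were shared by many genes.

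The genes around the subunits in the pathway were counted from lists fixed by role. None of their members was called in edgeR in KO against WT/HET, so counts are at an unadjusted p under 0.05, where 15.7% of all genes were higher and 9.48% lower. DESeq2 with apeglm called 3 of the non-canonical upstream genes, 1 of the canonical upstream genes, none of the IKK complex, 3 of the IκB family and 6 of the targets, as 7.1% of all genes. Nfkbia, whose level the deletion itself sets, is counted in both of the last lists. The HSC marker sum and several list members were lowest in WT3 and HET3. The lists were recounted after seeing the data, without these samples (leaving HET2 as the only female reference) and with summed HSC markers as covariate. Of all genes 4.18% and 2.35% were then higher, and 207 of 19770 and 304 of 20610 were lower. Upstream of the non-canonical arm, 6 of 9 genes tested were higher and none lower, with a median log2 fold change of 0.74. Without WT3 and HET3, 3 of the 9 (Birc2, Birc3 and Ltbr) were higher, with a median of 1.16, and with the HSC marker covariate 1 (Ltbr) was, with a median of 0.49. Ltbr, the lymphotoxin beta receptor, was at 46.4, 43.2 and 13.3 CPM in WT, 26.1, 18.2 and 14.9 CPM in HET, and 48.4 and 38.4 CPM in KO, a log2 fold change of 1.49 ± 0.28 (adjusted p = 0.148). The KO samples overlapped WT1 and WT2 and were above the HET samples. Map3k14, the gene of NIK, had a log2 fold change of 2.66 ± 0.87 (adjusted p = 0.154) at a mean of 2.69 CPM, and was at 0.312 and 0.356 CPM in WT3 and HET3. Upstream of the canonical arm, 4 of 14 were higher and none lower, with a median of 0.00, and 2 and 1 were higher in the recounts. Irak1, a kinase of the Toll-like and IL-1 receptor route, had a log2 fold change of 0.82 ± 0.16 and the TNF receptor gene Tnfrsf1a 2.13 ± 0.58 (both adjusted p = 0.148). Tnfrsf1a was at 139, 136 and 17.3 CPM in WT, 49.1, 39.0 and 10.2 CPM in HET, and 115 and 79.4 CPM in KO. Both KO samples were below WT1 and WT2, and of these 2 genes Irak1 alone was higher in the recounts.

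Of the 3 IKK complex genes, 1 was lower. In the recounts none was higher and none lower, against 207 of 19770 and 304 of 20610 of all genes lower. Chuk, the gene of IKKα, had a log2 fold change of -0.77 ± 0.25 (adjusted p = 0.153), and Ikbkb, the gene of IKKβ, had 0.35 ± 0.19 (adjusted p = 0.265). In the IκB family of 7 genes, 2 were higher and 2 lower, Nfkbia among the latter. Apart from Nfkbia, 1 (Nfkbie) was higher without WT3 and HET3, and none with the HSC marker covariate. Nfkbie, the gene of IκBε, was at 29.4, 29.2 and 5.88 CPM in WT, 12.2, 8.37 and 2.02 CPM in HET, and 33.6 and 24.4 CPM in KO, which overlapped, with a log2 fold change of 2.41 ± 0.58 (adjusted p = 0.148). Of 22 NF-κB target genes tested, 8 were higher and 2 lower, with a median of 1.29. The 2 lower genes were the deleted Nfkbia and Sod2, the gene of a mitochondrial superoxide dismutase (-0.92 ± 0.33, adjusted p = 0.16), named after its value was seen. Of the 21 genes other than Nfkbia, 6 were higher and none lower without WT3 and HET3, where 207 of 19770 genes were lower. The median of the 21 genes was 1.23. With the HSC marker covariate 2 of them, Ccl2 and Tnf, were higher, with a median of 0.28. In all 8 samples, Tnip1, an A20-binding inhibitor, had a log2 fold change of 1.67 ± 0.36 (adjusted p = 0.148), and its 55.9 and 35.9 CPM in KO overlapped the 56.5, 42.0 and 11.2 CPM in WT. It was higher without WT3 and HET3 but did not pass with the HSC marker covariate. In the male against female comparison, at an unadjusted p under 0.05, 5 of the 9 non-canonical upstream genes were higher and none lower, and 11 of the 22 targets were higher and 1 lower. Of the 14 canonical upstream genes 4 were higher and 3 lower, of the 7 IκB family genes 3 and 1, and of the 3 IKK complex genes none and 1. Of all genes, 18.9% were higher and 13.6% lower.

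**Figure D5:**
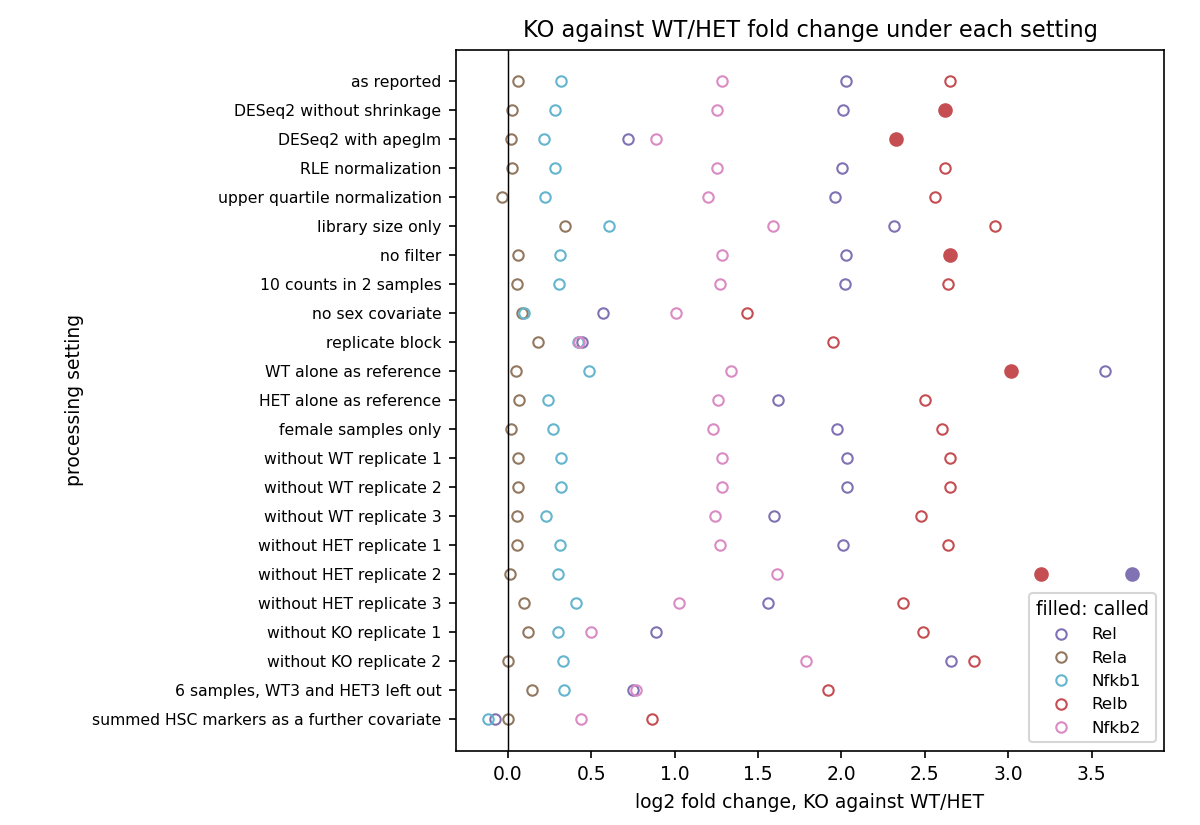
Log2 fold change of each subunit gene in KO against WT/HET (x axis) under each processing setting (rows), with filled points where the gene was called. Relb stays above 0 in every row, from 0.86 to 3.20, and is called in 5 alternatives, Rel is called in 1, and Rela ranges from -0.04 to 0.34.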

How the data were processed

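RNA from 500 LT-HSCs per sample was sequenced as 8 libraries. The authors trimmed the reads with Trim Galore 0.6.6, aligned them to GRCm38 with STAR 2.7.8, kept uniquely mapped reads and deposited raw counts per Ensembl gene. They also deposited log2 values transformed with DESeq2 1.38.3 and corrected for sex, used here only for the values named as theirs. The labels number the samples, and p-values measure the spread between them.

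Genes with fewer than 10 reads over the 8 samples were left out, which left 20610. Counts were TMM-normalized and tested by the quasi-likelihood test of edgeR 4.0.16 (R 4.3.3). The model held sex and KO status, WT and HET formed the reference, with Benjamini-Hochberg adjustment over all genes tested. Because both KO samples are female, the KO coefficient rests on the female references WT3, HET2 and HET3, while male samples set the sex term. HET and WT were compared without the KO samples. The deviations of same-numbered WT and HET samples from their group means correlated across genes in 3 of 3 pairs (r = 0.29, 0.20 and 0.59). These were therefore also fitted as pairs, though the labels state no source for the pairing and WT2 correlated more with HET1 (r = 0.40). Sex was not removed from the deviations. WT1 and HET1 share sex and RNA label, as do WT3 and HET3. WT2 and HET2 do not, and HET2 correlated more with WT1 (r = 0.23). With 2 KO samples, deviations mirror each other, so they can neither show nor exclude a pairing. A call needed an adjusted p under 0.05 and a log2 fold change beyond 1 in either direction. Alternatives were DESeq2 1.42.0, with apeglm 1.24.0 for shrinkage, and other normalizations, filters, covariates, references and omitted samples. Single genes were compared by two-sided exact permutation tests of log2 CPM (prior count 2). TPM used the exon union length in GENCODE M21. The fitting code was tested on simulated data.

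The libraries held 17895973 to 21720972 counted reads, and 3 reads, taken as the limit that a count of 0 allows, are 0.125 to 0.178 CPM. Such limits cover counting error only. The members and gene lists were chosen with earlier results of these data known. Named genes are the 5 members, Nfkbia, the 2 genes of each pathway list with the lowest p in KO against WT/HET, and the 3 genes most correlated with each member. Sod2, Birc2, Birc3, Ccl2, Tnf and Fgd5 were named after their values were seen, as the genes behind small counts. The lists of progenitor, dendritic, macrophage, B cell, T and NK cell, neutrophil, erythroid, megakaryocyte and endothelial markers were summed as well, and 1 gene of the HSC marker list is not reported here and was left out of its sum. Protein sequences, and promoters of Relb and Nfkb1, were not used here.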

Additional observations from a re-analysis of the deposited data

How the results depend on the processing

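For KO against WT/HET, 0 of the 5 members were called with edgeR, and 1 (Relb) was called by DESeq2 without shrinkage, DESeq2 with apeglm, edgeR with no filter and edgeR with WT alone as reference. The counts of all genes called moved with them from 0 to 1825, 1463, 1106 and 706, and to 1 with the summed HSC markers as covariate. Leaving out each sample in turn gave 0 to 2 members and 0 to 703 genes, both highest without HET2 (Rel and Relb). The log2 fold change of Relb was above 0 in 22 of 22 alternatives and that of Nfkb2 in 22 of 22. These alternatives are not independent, since with sex in the model the male samples do not enter the KO contrast. Without WT1, WT2 or HET1, Relb was at 2.65, 2.65 and 2.64 and Nfkb2 at 1.29, 1.29 and 1.27. With the summed HSC markers as covariate the log2 fold change was -0.080 for Rel and -0.118 for Nfkb1. For Rela it was -0.0366 with upper quartile normalization and -0.000279 to 0.12 when samples were left out in turn.

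In HET against WT no alternative called a member, and the genes called rose from 0 to 64 with DESeq2, 131 with no filter and 0 to 135 with samples left out, highest without HET2. Rel was at -1.02 without sex in the model, and from -0.94 to 1.96 with samples left out. The same omissions gave -0.61 to 0.23 for Nfkb1, -1.55 to 0.51 for Relb and -0.40 to 0.10 for Nfkb2. In male against female, DESeq2 called 2 members and 2988 genes in place of 0 and 4, omissions gave 0 to 2 members and 1 to 3089 genes, and leaving out WT3 and HET3 together gave 2 genes, 0.89 for Rel, 1.13 for Relb, 0.0326 for Rela and -0.0151 for Nfkb2. Without single samples Rel ranged from 1.70 to 3.88 and Relb from 1.49 to 2.41. Rela was at -0.14 to 0.0109 when samples were left out in turn. The causes were not tested. The difference in log2 ratio of the arms, KO minus WT/HET, was above 0 in 13 of 13 alternatives, from 0.84 to 1.87.

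With the replicate block and sex, 0 members and 0 genes were called in either comparison. In HET against WT the replicate block turned Rel to -0.68. The correlation of same-numbered samples cannot tell a pairing from shared sex and RNA label. For the KO numbers, this check can neither show nor exclude a pairing. With the replicate block in KO against WT/HET the log2 fold change was 1.95 for Relb, 0.44 for Rel and 0.42 for Nfkb2. The log2 fold change of Rel was 0.89 to 3.74 with samples left out in turn.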
